A study of Mus musculus with 192 samples.

Results

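A set of 7 genes that sense foreign or misplaced nucleic acid was followed at their transcription start sites in single mouse embryonic fibroblasts. The genes were *Ddx58* (RIG-I), *Ifih1* (MDA5), *Dhx58* (LGP2), *Mavs*, *Tlr3*, *Zbp1* and *Adar*. They were taken by name, 7 of the 11731 RefSeq genes with a start site in these data, with the start-site windows whose centre lay at most 1000 bp from an annotated RefSeq start of the gene. This gave 160 windows of 150 bp out of 136788 windows within that distance of any gene. In the cells analysed, 410 called peaks on the genes' own strands fell in them.

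The cells were C57BL/6 embryonic fibroblasts, connective-tissue cells grown from mouse embryos on uncoated plastic. Every cell was exposed to interferon-beta, a secreted antiviral protein, at 100 U/ml for 1 h, so the control cells carried that treatment too. In the naïve group (96 cells) this was the only treatment named, and the pretreated group (96 cells) had an earlier treatment whose agent, dose and time the labels do not give. No untreated cells are among the samples. The study's question was which genes use alternative start sites in stimulated fibroblasts. Its assay (scTSS-seq) sequences 5′ ends of polyadenylated RNA from single cells, and a sequenced tag marks a start position.

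The sensors divide the labour by place and ligand. RIG-I and MDA5 are cytosolic helicases that bind double-stranded RNA, RIG-I favouring ends with a triphosphate and MDA5 long duplexes, and both signal through MAVS, an adaptor on the mitochondrial membrane that leads to transcription of type I interferon. LGP2 is their relative without the signalling domains and tunes both. TLR3 binds double-stranded RNA in endosomes, ZBP1 binds nucleic acid in the left-handed Z form and can start cell death through RIPK3, and ADAR1, the product of *Adar*, edits adenosines in double-stranded RNA and so keeps the cell's own RNA from being sensed. Several of these genes are textbook interferon-stimulated genes, whose promoters carry an interferon-stimulated response element (ISRE).

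Sequences around the annotated starts show which of these genes carry such an element near the start, and are printed for that reason. RefSeq promoters on build GRCm38.p6, covering 250 bases before to 50 bases after an annotated start, were found for 5 of the 7 genes (*Adar* with 3 starts), and not for *Dhx58* and *Zbp1*. The ISRE core searched was GAAANNGAA on both strands, which 8.56% of all 32851 promoters of this length hold. It was found once in *Ddx58*, in 2 places in *Ifih1*, and in 2 places at the downstream *Adar* start. The match nearest the start stands here in a 30-base stretch, read 5′ to 3′ on the gene's strand, with the matched bases in capitals.
Ddx58 (chr4:40239803-40239832, minus strand): ctgaggcagtTTCGATTTCctatggccagc
Ifih1 (chr2:62646206-62646235, minus strand): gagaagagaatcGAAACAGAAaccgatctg
Adar, downstream start (chr3:89730738-89730767, plus strand): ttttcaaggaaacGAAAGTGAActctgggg
These matches lie just inside the annotated transcripts, at 3 to 11 bases after the start in *Ddx58*, 32 to 40 in *Ifih1* and 33 to 41 in *Adar*. The other matches lay upstream, at −112 to −104 from the start in *Ifih1* and at −249 to −241 in *Adar*. A match is a description of letters and not a shown binding site.

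The promoters of *Mavs*, *Tlr3* and the upstream *Adar* starts (chr3:89715022 and chr3:89715238) held no ISRE core in their 300 bases. For *Tlr3* the promoter of only 1 start (chr8:45410380) was found, so its other annotated start was not searched. The 100 bases before the start are shown for *Mavs*, *Tlr3* and the *Adar* start at chr3:89715022, with GC boxes (GGGCGG on either strand, in 35.7% of promoters) in capitals.
Mavs (chr2:131233963-131234062, plus strand): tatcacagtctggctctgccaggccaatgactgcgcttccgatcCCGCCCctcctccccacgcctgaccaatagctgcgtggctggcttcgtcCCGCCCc
Adar, upstream start (chr3:89714922-89715021, plus strand): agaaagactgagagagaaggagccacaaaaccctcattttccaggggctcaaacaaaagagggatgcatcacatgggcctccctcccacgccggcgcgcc
Tlr3 (chr8:45410381-45410480, minus strand): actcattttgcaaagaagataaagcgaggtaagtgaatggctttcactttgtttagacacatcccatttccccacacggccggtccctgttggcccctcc
A kappaB-like element (GGGANTTTC, in 1.11% of promoters) was found once, in *Tlr3*. A TATA box (TATAAA, in 13.6%) was found once, in *Ddx58*, at −153 to −148 from the start. A GAS motif (TTCNNNGAA, in 8.3%) was found once, 22 to 30 bases after the downstream *Adar* start. No motif letters in a window say nothing about whether a factor acts on the gene.

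After cells with under 10% of the median depth were left out, 92 naïve and 85 pretreated cells remained. Their total tags ran from 305066 to 3857034 in naïve and from 502374 to 13174313 in pretreated cells, and 12 pretreated cells but no naïve cell exceeded 5000000. Each sample is 1 cell and no culture or animal is named, so each group counts as 1 sample. No difference below was tested or has a replicate check, and intervals (95%) cover counting error only. The fibroblast markers fitted the label: 8 of 8 were listed in naïve and 7 of 8 in pretreated cells (*Thy1* at 0), with at least 1 in every cell. Of 6 macrophage and other leukocyte markers, 3 were listed in naïve cells (in 10 cells; *Ptprc*, *Emr1* and *Itgam* at 0) and 1 in pretreated cells (in 3 cells), with summed levels of 83.2 and 16.8; their part in the results was not tested. All 3 dendritic-cell and all 4 epithelial markers were at 0 in both groups, and of the 3 endothelial markers 1 was listed, in 1 pretreated cell.

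*Zbp1*, *Adar*, *Ifih1* and *Dhx58* were at least 2-fold higher in pretreated than in naïve cells, while *Ddx58* and *Tlr3* differed by less than 2-fold. A level here is the number of start-site tags summed over the cells of a group per 10000000 tags sequenced in it, and a log2 ratio is pretreated over naïve. It is not divided by transcript length, because each RNA has 1 5′ end. Of the 7 genes, 6 reached the level of 50 set as a filter in either group, and *Mavs* did not. By the 2-fold rule 4 of these 6 were higher and none lower, where 32.9% of the 6649 genes passing the filter were higher and 13.3% lower. The median log2 ratio of the 6 was 2.17, against 0.46 over all genes passing. Since they were chosen by name with earlier results known, these counts describe the genes and are no test of them. The same 4 genes were at least 2-fold higher under each of 15 alternative settings, among them leaving out the 12 deepest pretreated cells. Some settings could change little. The filter settings leave a gene's ratio as it was, and 5 added tags or the use of all cells moved it very slightly.

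A gene is listed in a cell only where a peak was called there. The caller was set to a minimum of 200 tags per 10000000, but listed values can lie below it (1 sensor-gene value did, at 178.8), so the exact floor of the listed values is not known. A cell without a peak is not shown to lack the RNA. The genes were listed in few naïve cells, 3 to 16 of 92. In pretreated cells the number ran from 8 of 85 for *Mavs* to 84 of 85 for *Zbp1*. The median difference in share of listing cells was 40.1 percentage points over the 7 genes and 44.1 over the 6 that passed, against 10.997 over all genes passing.

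**Figure D1:**
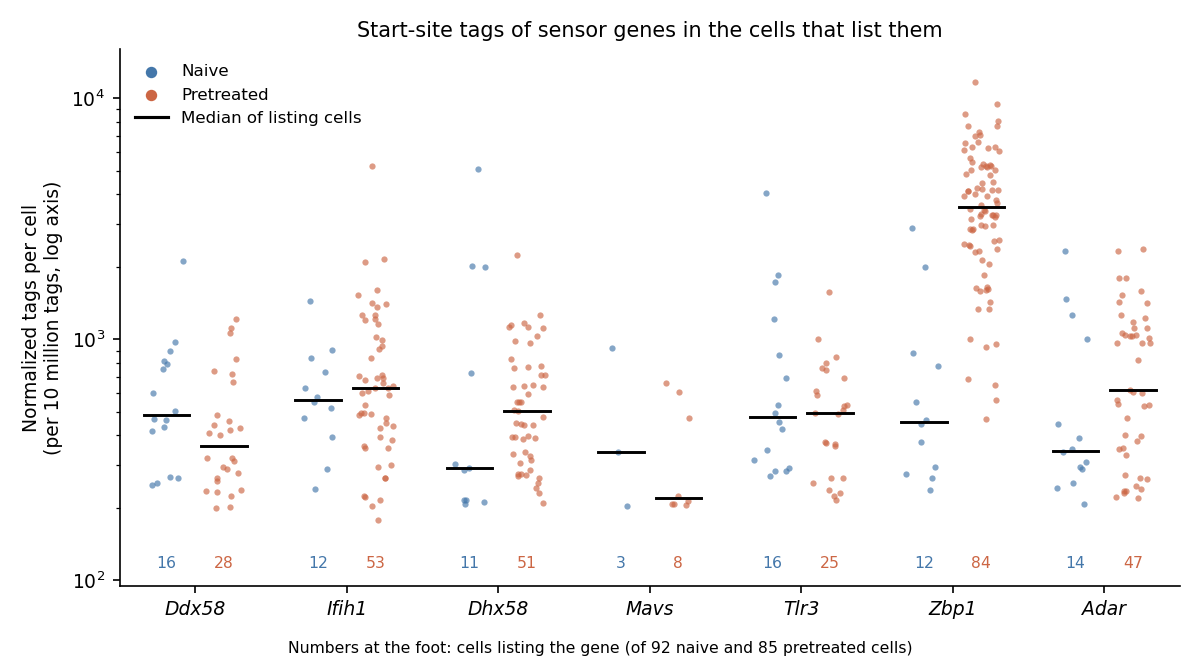
Normalized tags per cell (per 10000000 tags of the cell, log axis) of the 7 sensor genes in each cell that lists them, naïve in blue and pretreated in orange, with black bars at the median of the listing cells. Only *Zbp1* shows pretreated cells (median 3554) mostly above the naïve ones (median 454.5); for the other genes the listing cells of the groups overlap widely and the number of listing cells differs.

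Among the cytosolic receptors, *Ifih1* was listed in 12 of 92 naïve cells (13.04%, exact binomial interval 6.93 to 21.7%) and in 53 of 85 pretreated cells (62.4%, 51.2 to 72.6%). Its listed values ran from 240.0 through a median of 563.6 to 1449 tags per 10000000 in naïve cells and from 178.8 through 628.6 to 5266 in pretreated cells. The listing cells of the groups thus overlapped over most of their range. The group level was 82.9 in naïve (exact Poisson interval 78.96 to 86.93) and 456.6 in pretreated cells (448.8 to 464.5), a log2 ratio of 2.46 (2.39 to 2.54).

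*Ddx58*, whose product RIG-I has the same adaptor, differed far less. It was listed in 16 naïve cells (17.4%, 10.3 to 26.7%) and 28 pretreated cells (32.9%, 23.1 to 43.98%), and these intervals overlap. The listed values ran from 249.5 through a median of 486.0 to 2123 in naïve cells and from 200.4 through 361.3 to 1216 in pretreated cells, the pretreated median being the lower. The group level was 129.6 in naïve and 168.6 in pretreated cells, and the log2 ratio 0.38 (0.31 to 0.45). This direction was not stable: the ratio was −0.06 under median-of-ratios scaling and −0.31 with starts taken from the GENCODE table.

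*Dhx58*, coding for the regulator LGP2, was listed in 11 naïve cells (11.96%, 6.12 to 20.4%) and 51 pretreated cells (60%, 48.8 to 70.5%). In naïve cells the listed values ran from 207.0 through 293.8 to 5114, and in pretreated cells from 209.3 through 504.8 to 2235. The highest single value was in a naïve cell, and another naïve cell, of greater depth, held 30.3% of that group's tags for the gene. The group levels were 99.7 and 366.0, a log2 ratio of 1.88 (1.81 to 1.94), which rests on different positions in the groups, as described with the start sites.

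*Mavs*, the adaptor on which RIG-I and MDA5 converge, was the least listed of the genes. It had a peak in 3 naïve cells, with values of 203.9, 342.2 and 923.1, and in 8 pretreated cells, from 206.3 through a median of 219.6 to 662.1. The levels of 15.001 and 24.3 lie under the filter, and 1 naïve cell gave 78.4% of them in its group. The log2 ratio of 0.70 (0.50 to 0.90) therefore rests on very few cells. It was −0.75 in even-numbered cells, 2.43 without the cell holding most tags in each group, 1.37 without cells above 5000000 tags and 1.04 as a mean over cells, and in odd-numbered cells *Mavs* was listed at 0 in the naïve group.

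The endosomal receptor gene *Tlr3* was listed in 16 naïve cells (17.4%) and 25 pretreated cells (29.4%, 20.02 to 40.3%). Listed values ran from 271.0 through 475.9 to 4061 in naïve and from 216.0 through 494.3 to 1577 in pretreated cells, with near-equal medians. The level was 145.6 in naïve and 126.7 in pretreated cells, and the log2 ratio −0.20 (−0.27 to −0.13). A single naïve cell gave 36.9% of the naïve tags. Without the cell holding most tags in each group the ratio was 0.27, in odd-numbered cells it was 0.49 and in even-numbered cells −1.02, so no direction is given for *Tlr3*.

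*Zbp1* stood apart from the other genes. It was listed in 12 of 92 naïve cells (13.04%, 6.93 to 21.7%) and in 84 of 85 pretreated cells (98.8%, 93.6 to 100.0%). Listed values ran from 237.2 through a median of 454.5 to 2892 in naïve cells and from 467.4 through 3554 to 11668 in pretreated cells. Every listing pretreated cell was thus above the naïve median, although the ranges overlap. The level was 104.7 in naïve (100.3 to 109.2) and 3853 in pretreated cells (3830 to 3876), a log2 ratio of 5.20 (5.14 to 5.26), or 36.8-fold. Over all pretreated cells, the 1 unlisted cell counted as 0, the mean was 3903 ± 2237 (SD over 85 cells), so cells of this group differed widely in *Zbp1*.

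*Adar*, the editing enzyme, was listed in 14 naïve cells (15.2%, 8.58 to 24.2%) and 47 pretreated cells (55.3%, 44.1 to 66.1%). Listed values ran from 206.7 through 345.4 to 2329 in naïve and from 220.9 through 614.4 to 2372 in pretreated cells. Their ranges were nearly the same, with a higher pretreated median. The level was 76.3 in naïve and 504.8 in pretreated cells, and the log2 ratio 2.73 (2.65 to 2.80).

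**Figure D2:**
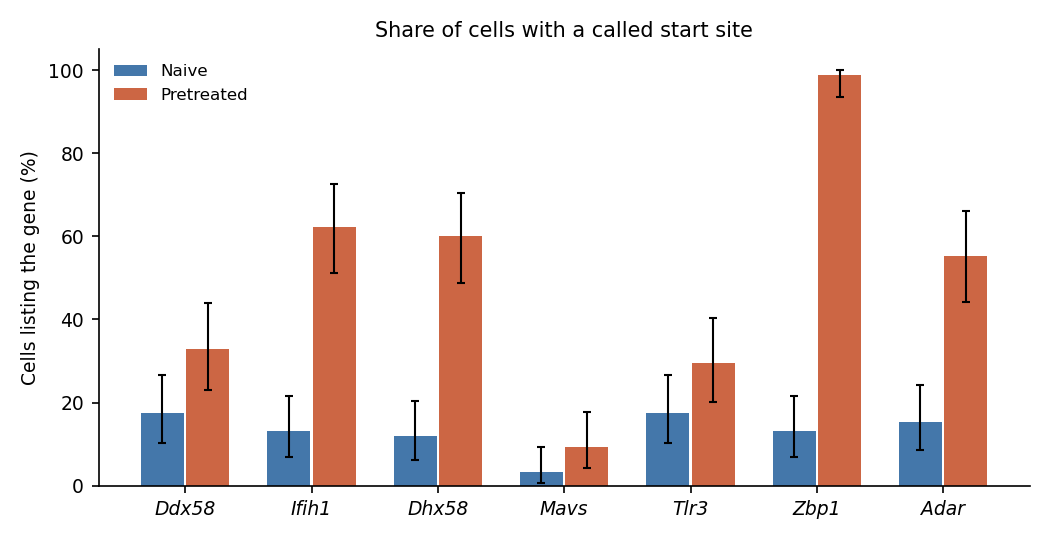
Share of cells (%) in which a start-site peak of each sensor gene was called, naïve (92 cells) in blue and pretreated (85 cells) in orange, with exact 95% binomial intervals as bars. The intervals of the groups are apart for *Ifih1*, *Dhx58*, *Zbp1* and *Adar* and overlap for *Ddx58*, *Mavs* and *Tlr3*.

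The share of listing cells and the mean value of a listing cell were also compared. Multiplied, they give the ratio of means over cells, each cell weighing the same, and not the ratio of group levels above. For *Adar* the log2 ratio of means over cells was 2.21 against 2.73 by group level, and for *Dhx58* 1.53 against 1.88. For *Ifih1* the share of listing cells was 4.78-fold higher in pretreated cells and the mean value of a listing cell 1.31-fold higher. For *Adar* the same quantities were 3.63-fold and 1.27-fold. For *Dhx58* the share was 5.02-fold higher while the mean value of a listing cell was 0.577 times the naïve one, its median being 1.72 times. *Zbp1* was the exception, with a share 7.58-fold higher and a mean listing value 5.01-fold higher. In the remaining genes the mean listing value was 0.605 to 0.727 times the naïve one, beside shares 1.69-fold to 2.89-fold higher. The minimum for a peak cuts off low values, so the share and the value of listing cells are not independent of each other.

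The order of the group levels also differed. In naïve cells it was *Tlr3* (145.6), *Ddx58* (129.6), *Zbp1* (104.7), *Dhx58* (99.7), *Ifih1* (82.9), *Adar* (76.3) and *Mavs* (15.001). Counting intervals of *Zbp1* and *Dhx58* overlap, as do those of *Ifih1* and *Adar*, and the listing shares of the first 6 genes (11.96 to 17.4%) all overlap. In pretreated cells the order was *Zbp1* (3853), *Adar* (504.8), *Ifih1* (456.6), *Dhx58* (366.0), *Ddx58* (168.6), *Tlr3* (126.7) and *Mavs* (24.3), with no overlap of counting intervals between neighbours. Counting intervals treat each read as a separate count and leave out the spread over cells, so they do not settle this order. The listing shares of *Ifih1*, *Dhx58* and *Adar* (62.4, 60 and 55.3%) have overlapping intervals, as have those of *Ddx58* and *Tlr3* (32.9 and 29.4%). The order over cells is thus not resolved within either set. Among all 6649 genes passing the filter, *Zbp1* ranked 4040 by level in naïve cells and 302 in pretreated cells.

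Depth moved with the group, since pretreated cells had a median of 2650490 tags and naïve cells 2305628. Cells were therefore also compared after each was thinned to 1122993 tags, which left 76 naïve and 83 pretreated cells. The share of cells with a tag at a listed peak was then 14.5 and 98.8% for *Zbp1*, 14.5 and 56.6% for *Adar*, 11.8 and 63.9% for *Ifih1* and 13.2 and 60.2% for *Dhx58*. These lie close to the shares without thinning. The peaks themselves were called at the full depth of each cell, which thinning does not undo.

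Cells also differed in how many of the 7 genes they listed. Of 92 naïve cells, 33 listed none, 41 listed 1 and 18 listed 2 or more, the most being 5. Of 85 pretreated cells none listed 0, 4 listed 1 and 81 listed 2 or more, the most being 6. The median was 1 gene in naïve and 3 in pretreated cells. *Zbp1* was listed in 84 of these 85 cells. The summed value of the 7 genes in a cell had a median of 278.0 in naïve (0 to 5114) and 5155 in pretreated cells (684.4 to 11903).

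**Figure D3:**
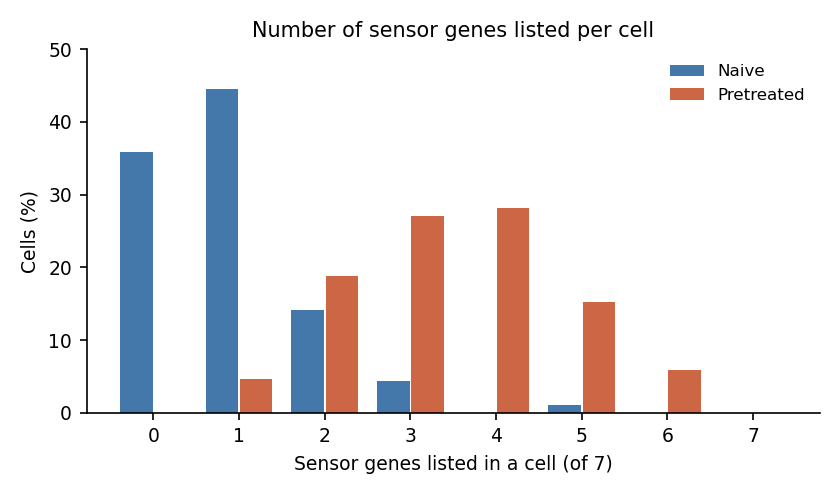
Share of cells (%) against the number of the 7 sensor genes listed in a cell, naïve (92 cells) in blue and pretreated (85 cells) in orange. Naïve cells sit mostly at 0 and 1 gene (35.9 and 44.6%), pretreated cells mostly at 2 to 5 genes.

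Within pretreated cells the genes showed little relation to each other from cell to cell. Spearman's rho between the values of any pair ran from −0.09 (*Dhx58* with *Adar*) to 0.17 (*Dhx58* with *Tlr3*) over 85 cells, with unlisted cells at 0. *Ifih1*, for example, was listed in 64.3% of cells that listed *Ddx58* and in 61.4% of cells that did not. *Dhx58* was listed in 62.3% of cells with *Ifih1* and in 56.3% of cells without. The value of *Zbp1* against the sum of the other 6 genes gave a rho of −0.06. All values of a cell share its library and depth, and with values this sparse such weak relations show no pattern.

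Of 2323 genes listed in at least 50% of pretreated cells, the 3 whose values followed the summed sensor value most closely were *Ptrhd1* (rho 0.44), *Kif20a* (0.42) and *Tnfrsf12a* (0.41), over 85 cells. The median rho of all 2323 genes was 0.06. The sum is mostly *Zbp1*. Without it the highest rho was 0.40, with another gene, *Hint3*. The 3 genes are named by a rule of size and nothing is read from them.

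Start positions were then compared, since the assay was built for them. Windows of a gene lying within 50 bp of each other were joined into start regions, and the leading region is the one with most tags. The leading region was the same in both groups for *Ddx58*, *Ifih1*, *Zbp1*, *Mavs* and *Adar*, and differed for *Dhx58* and *Tlr3*. The share of all genes with a differing leading region was not counted. Whether such a difference is common among genes listed in few cells is therefore not known. Coordinates of windows are on build mm9, and distances are from the window centre to the RefSeq start as deposited, positive within the gene. A cell lists peaks at least 300 bp apart, so within a region each cell gives 1 position.

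*Dhx58* showed the clearest difference in position. In naïve cells 97.9% of its tags (in 10 cells) lay in a region from −996 to −658 bp relative to the start (chr11:100566169-100566656), and 2.12% (43 tags of 1 cell) lay at the start itself. In pretreated cells the upstream region held 33.6% (in 23 cells) and the region 12 to 87 bp after the start (chr11:100565424-100565648) held 61.7% (in 38 cells). The level at the start was thus 2.11 in naïve and 225.9 in pretreated cells. The upstream level was 97.6 and 123.0, a log2 ratio of 0.33. Within 200 bp of the start the log2 ratio of *Dhx58* was 6.72 (6.31 to 7.21), but it rests on 1 listing naïve cell. The leading region of *Dhx58* differed between the groups under all the alternatives tried.

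The deposited annotations give the upstream tags to *Dhx58* by distance alone. In GENCODE vM21, on the later build GRCm38, the 3′ end of *Kat2a*, a histone acetyltransferase gene on the same strand, lies 475 bp before the *Dhx58* start, so tags farther upstream would fall where *Kat2a* lies in that annotation. *Kat2a* itself had a level at its own starts of 32.2 in naïve (4 cells) and 103.9 in pretreated cells (9 cells). Whether the upstream tags belong to *Dhx58* was not tested.

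*Tlr3* has 2 groups of annotated starts 239 bp apart on mm9. In naïve cells 72.3% of the tags lay in a region reaching to 168 bp after the inner start (chr8:46495492-46495811, 8 cells) and 22.4% in a region 418 to 480 bp after it (chr8:46495180-46495391, 6 cells). In pretreated cells the same regions held 47.8% (13 cells) and 48.5% (15 cells). The naïve value rests on 1 window 106 bp after the start, which held 47.6% of that group's tags (2 cells) and no pretreated tag. The nearby window centred 102 bp after the start held 2.5% of naïve tags (2 cells) and 14.6% of pretreated tags (4 cells). With each cell weighted equally, in odd-numbered cells, and without cells above 5000000 tags, the leading region of *Tlr3* was the same in both groups.

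*Adar* has start sites far apart that give different proteins. In GENCODE vM21 the transcripts from the downstream start (Adar-201 and Adar-203) have 3456 and 3534 coding bases and the transcript from the upstream start (Adar-202) has 2790. The starts lie 15696 bp apart in RefSeq on both mm9 and GRCm38.p6. The downstream region (chr3:89534582-89534803) held 87.7% of naïve tags (11 cells) and 97.3% of pretreated tags (45 cells). The upstream region (chr3:89518909-89519085) held 3.74% (1 cell) and 1.499% (2 cells), at levels of 2.85 and 7.57. Most *Adar* tags in both groups were therefore at the start that carries the ISRE core printed above, and the upstream start, without one, was listed in too few cells for a comparison.

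Within the downstream *Adar* region, pretreated tags gathered in windows centred 48 bp (30.2%, 7 cells), 50 bp (27.3%, 15 cells) and 63 bp (28.05%, 10 cells) after the annotated start. Set beside the ISRE core at 33 to 41 bases, windows centred after the core held 91.7% of the pretreated tags given to this start. Windows centred within it held 4.70% and windows centred before it 3.61%. In naïve cells the shares were 33.4% after, 46.7% within and 19.9% before. The leading naïve window was centred 40 bp after the start (40.4% of all naïve *Adar* tags, in 2 cells). A single naïve cell with its peak in this window held 35.1% of all naïve *Adar* tags. The naïve shares thus rest largely on 1 cell, and no shift in position between the groups is read from them. The naïve tags counted within the core came from this window and 1 centred at 41 bp (1 cell), both near its end. The leading windows of *Ddx58* in pretreated cells were centred 20 bp (23.6%, 3 cells) and 31 bp (21.01%, 5 cells) after its start. Windows centred after its match at 3 to 11 bases held 94.1% of all its pretreated and 91.3% of its naïve tags. The leading window of *Ifih1* was centred 94 bp after its start (38.6% of pretreated tags in 13 cells and 33.1% of naïve tags in 5 cells). Windows centred after its match at 32 to 40 bases held 98.6% of its pretreated tags and all of its naïve tags. Each window is 150 bp wide and was counted at its centre, and the windows named here all span the match. These shares therefore place windows, and not single tags, relative to a match. Motif positions come from GRCm38.p6 and peak distances from mm9. They were set beside each other through the RefSeq start of each gene, which was not aligned between builds.

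*Zbp1* kept a compact start. Its main region, from −5 to 41 bp relative to the start (chr2:173044308-173044503), held 96.5% of naïve and 99.6% of pretreated tags. A window centred at −5 bp (chr2:173044354-173044503) held 55.5% of naïve tags (4 cells) and 55.9% of pretreated tags (44 cells). A further 14.4% of pretreated tags lay at −3 bp (8 cells) and 14.6% at 36 bp (12 cells), where no naïve tag was listed. The nearby window centred at 41 bp held 15.2% of naïve tags (3 cells) and 2.76% of pretreated tags (3 cells). With 2128 naïve tags, the exact binomial interval of a count of 0 at that window reaches 0.173%, but only 12 naïve cells stand behind it.

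In *Ifih1* the main region, 12 to 239 bp after the start (chr2:62483999-62484375), held 89.97% of naïve and 84.6% of pretreated tags. A second region 531 to 585 bp after the start (chr2:62483653-62483856) held 6.29% of naïve tags in 1 cell and 11.4% of pretreated tags in 12 cells. All *Ddx58* tags counted here, those within 1000 bp of the start, lay within 200 bp of it in both groups. *Mavs* tags lay within 45 bp of the start in 3 of 3 naïve and 7 of 8 pretreated listing cells.

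**Figure D4:**
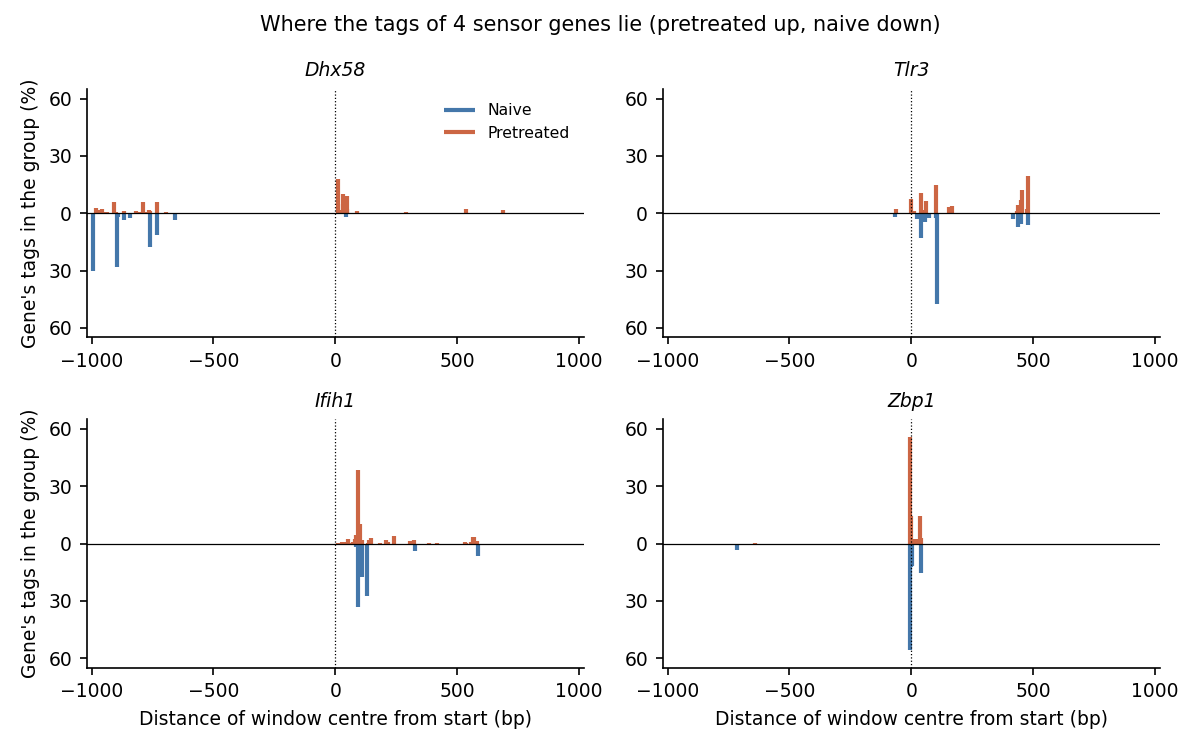
Percentage of a gene's tags in each group against the distance of the window centre from the annotated start (bp, positive within the gene), for *Dhx58*, *Tlr3*, *Ifih1* and *Zbp1*, with pretreated cells drawn upward and naïve cells downward. *Dhx58* is nearly all upstream in naïve cells (97.9%) and mostly at the start in pretreated cells (61.7%), whereas *Zbp1* peaks at the same window in both groups.

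Peaks of the sensor genes were less sharply focused in pretreated cells. The focus ratio measures how tightly a peak is gathered around its main position (1 being tightest). Its median over sensor-gene peaks was 0.973 in naïve (84 peaks, 0.45 to 0.996) and 0.883 in pretreated cells (326 peaks, 0.283 to 0.999). Over the peaks of all genes it was 0.956 and 0.897, so a difference in the same direction was seen throughout the data. For *Zbp1* the medians were 0.983 and 0.713, for *Ifih1* 0.958 and 0.871, and for *Dhx58* 0.969 and 0.959. *Mavs* had 0.979 and 0.977, *Ddx58* 0.977 and 0.959, *Tlr3* 0.961 and 0.916, and *Adar* 0.973 and 0.916. *Zbp1* gave 12 of the 84 naïve and 85 of the 326 pretreated peaks. The medians over all sensor-gene peaks therefore also reflect which genes gave the peaks.

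The distance limit leaves out tags elsewhere in the genes. Of all tags on the strand of *Zbp1* that the RefSeq table gives to it, 26.7% in naïve and 85.9% in pretreated cells lay within 1000 bp of the start. For *Ddx58* these shares were 26.2 and 29.9%, and it was listed at any distance in 49 naïve and 67 pretreated cells. For *Ifih1* they were 48.1 and 80.02%, and for *Adar* 31.7 and 60.7%. Counting all of them gave log2 ratios of 3.52 for *Zbp1*, 1.79 for *Adar* and 1.73 for *Ifih1*, each lower than at the start but still above 2-fold.

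Other genes of the sensing pathways were described from a list of 55 genes ordered by role. Of these, 48 were listed in either group and 34 passed the filter. By the 2-fold rule 15 of the 34 (44.1%) were higher in pretreated cells, 2 were lower and 17 were neither, beside the 32.9% and 13.3% of all genes. Their median log2 ratio was 0.66. Of the 15, *Traf6*, *Irf5*, *Unc93b1* and *Oas2* were listed at 0 in naïve cells, so no fold is given for them, and they lie above this median at any value.

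**Figure D5:**
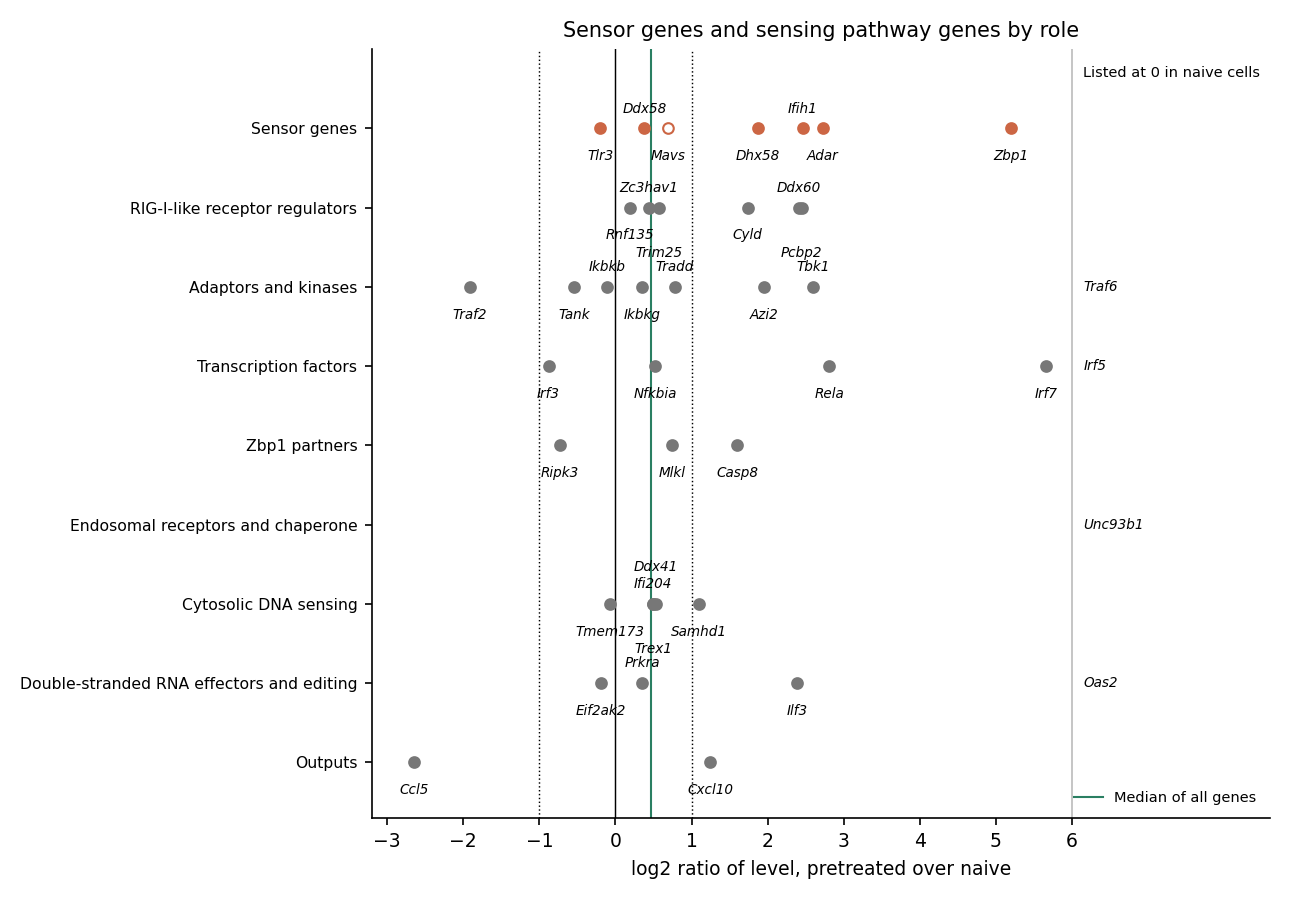
Log2 ratio of group level, pretreated over naïve, of the sensor genes (orange; *Mavs*, under the filter, open) and of sensing pathway genes passing the filter by role (grey). Dotted lines mark 2-fold, the green line the median of all genes (0.46), and genes listed at 0 in naïve cells stand at the right without a ratio.

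Of 10 regulators of the RIG-I-like receptors, 6 passed, 3 of them higher. *Pcbp2*, whose product targets MAVS for degradation, had the highest ratio, with levels of 68.2 and 372.5 (11 and 51 cells, log2 2.45). *Rnf135*, a ubiquitin ligase that activates RIG-I, had the lowest, 85.8 and 97.9 (log2 0.19). Of 13 adaptors and kinases, 8 passed, 3 higher and 1 lower. *Traf6*, a ubiquitin ligase downstream of Toll-like receptors, was listed at 0 in naïve cells and at 60.6 in 6 pretreated cells. *Traf2*, an adaptor of the TNF receptor pathway, was lower, at 114.3 and 30.3 (5 and 7 cells, log2 −1.91). *Tbk1*, the kinase that phosphorylates IRF3 downstream of MAVS, was named after its values were seen, with 112.3 and 681.1 (12 and 51 cells, log2 2.60).

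Of 6 transcription factor genes on the list, 5 passed and 3 were higher. *Irf5* was listed at 0 in naïve cells and at 161.1 in 16 pretreated cells. *Irf3*, the factor MAVS signalling activates first, had the lowest ratio, at 63.8 and 34.7 (6 and 7 cells, log2 −0.88). *Irf7*, the interferon-induced relative of IRF3, was named after its values were seen, with 6.89 in 2 naïve cells and 349.2 in 48 pretreated cells (log2 5.66).

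Among 4 partners of ZBP1, 3 passed. *Casp8*, a protease that restrains necroptosis, was higher, at 43.2 and 131.0 (7 and 23 cells, log2 1.60). *Ripk3*, the kinase that ZBP1 binds, had the lowest ratio, at 341.8 and 206.2 (34 and 21 cells, log2 −0.73). Only *Unc93b1*, the chaperone that carries nucleic acid-sensing Toll-like receptors to endosomes, passed among the 4 endosomal genes, listed at 0 in naïve cells and at 122.0 in 14 pretreated cells. *Tlr8* and *Tlr9* were at 0 in both groups.

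In cytosolic DNA sensing 5 of 7 genes passed and 1 was higher. This was *Samhd1*, which breaks down deoxynucleotides, at 528.4 and 1132 (36 and 71 cells, log2 1.10). *Tmem173* (STING) had the lowest ratio, at 296.9 and 283.1 (log2 −0.07), and *Aim2* and *Mb21d1* (cGAS) were at 0 in both groups. Of 8 genes for double-stranded RNA effectors and editing, 4 passed and 2 were higher. *Oas2*, which makes the messenger that activates RNase L, was listed at 0 in 92 naïve cells and at 397.7 in 53 of 85 pretreated cells. *Eif2ak2* (PKR, the kinase that halts translation on double-stranded RNA) had the lowest ratio, at 1062 and 929.1 (65 and 71 cells, log2 −0.19).

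The 3 outputs on the list differed in direction. The chemokine gene *Cxcl10* was higher in pretreated cells, at 1780 and 4217 (30 and 62 cells, log2 1.24). The chemokine gene *Ccl5* was lower, at 1004 and 160.6 (26 and 11 cells, log2 −2.64). *Ifnb1*, the interferon-beta gene itself, was listed at 0 in both groups.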

How the data were processed

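Start-site peaks of 192 single cells were used. Per the file headers, the authors ran HOMER findPeaks in start-site mode on every cell (width 150 bp, at least 300 bp between peaks, at least 200 tags per 10000000, 2 times the density of the surrounding 10000 bp at a Poisson p of at most 1e-04). The submitters' processing notes name Bowtie2, HOMER and mm9. Alignment settings and duplicate handling are not given in the sources used here, and no molecular identifiers are mentioned, so a tag is a read. The deposited signal is given in tags per 10000000 tags of the cell, and the deposited focus ratio is a fraction from 0 to 1, per the file headers. The authors' tables annotate 553094 windows with RefSeq or GENCODE genes and distances to the nearest start.

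Tags were recovered as signal times header total. All 1082504 peaks came out whole (within 0.1 tag or the rounding of the value). Of these, 1080791 started within 2 bp of a window and counted for its RefSeq gene where they lay on the gene's strand, within 1000 bp. Strand came from the deposited distances, or else from GENCODE vM21. Cells under 230562.75 tags (4 naïve, 11 pretreated) were left out, and no 2 cells had the same totals. Tags were summed per group and scaled to header totals, with 0.5 tag added for ratios. The filter was a level of 50 in either group, and a call at least 2-fold. A gene listed at 0 in 1 group and passing the filter counts as called. No test was run, since each group is 1 sample of cells. Shares carry Clopper-Pearson and sums Poisson intervals, which cover counting error only. A pair of matrices with 384 unnamed columns was not used.

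The members, pathway and marker lists and motifs were chosen with earlier results of these data known. All sensor genes are named; per pathway role the genes with the highest and lowest ratio are named. Ratios were tested on simulated data. Python 3.11.15, pandas 2.3.3, numpy 2.4.6 and scipy 1.17.1 were used. Alternatives covered scaling, filters, added tags, cells, distance, strand and annotation.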

Additional observations from a re-analysis of the deposited data

Results flagged for a closer look

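Peaks on the strand opposite to the genes lie outside the comparisons above. At the sensor gene windows they held 1017 tags in naïve cells (5 peaks in 4 cells) and 1149 tags in pretreated cells (7 peaks in 7 cells), above the limit that a count of 0 allows (3 tags). They were at *Dhx58* (466 tags) and *Zbp1* (282 tags) among others in naïve cells, and at *Zbp1* (602 tags in 3 cells) and *Ifih1* (290 tags in 1 cell) among others in pretreated cells. There are no untreated cells to compare them with, and the difference between the groups was not tested. The counts are not scaled to the group totals (203318843 naïve and 286780183 pretreated tags), so the higher pretreated count is not a higher level.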

How the results depend on the processing

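No paired analysis was possible because each group is 1 sample and the cell numbers only name cells. The count of 4 sensor genes at least 2-fold higher held under all 15 alternatives, and the share difference stayed between 35.1 and 44.7 points in 8. Of these 8, the thinning could hardly change which cells list a gene. The median log2 ratio of the sensor genes, 2.17, moved beyond counting error in 13 of 15, always staying above 2-fold. It was 1.9997 with start-site tags as the total, 1.73 with median-of-ratios scaling, 1.87 as a mean over cells, 1.88 with no filter and 2.59 with a filter of 200. It was 2.29 in odd-numbered and 1.98 in even-numbered cells, 2.56 without the cell holding most tags of each gene in each group, 2.55 within 200 bp and 1.73 at any distance. With both strands it was 2.04, with GENCODE starts 2.06, and 2.28 without cells above 5000000 tags, an alternative chosen after seeing the data. Single-gene log2 ratios ran from 3.52 to 6.02 for *Zbp1*, 1.79 to 4.60 for *Adar*, 1.43 to 6.72 for *Dhx58* and 1.73 to 2.82 for *Ifih1*. Median-of-ratios scaling lowered every log2 ratio by 0.44, near the median of all genes. The pathway count was 24 of 48 genes with no filter, 9 of 19 with a filter of 200 and 13 of 49 at any distance. It was 13 to 19 of 29 to 35 genes otherwise. The share of all genes under each setting is not given here. Genes with a differing leading region numbered 5 with single windows, and 1 with cells weighted equally, in odd-numbered cells and without cells above 5000000 tags. No share over all genes stands beside these counts either. The cause of these shifts was not tested, beyond the fewer or more genes a filter leaves. Low counts of listing naïve cells (3 to 16) limit every naïve value.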
